A study of Mus musculus with 5 samples.

Results

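The killer cell lectin-like receptor (*Klr*) genes were examined in RNA-seq of sorted dermal group 2 innate lymphoid cells (dILC2s). Members were all rows of the count table whose symbol begins with *Klr*, a family letter from a to k and a digit, which gave 30 of 47729 genes. All 30 lie on chromosome 6 of GRCm38, at the same coordinates in the deposited table and in GENCODE M21. The libraries came from wild-type (WT) C57BL/6 mice (3 pools, numbered 5, 6 and 13) and from *Rag1*-/- mice on the same background (2 pools, numbered 2 and 7), all adult females, and the cells were not stimulated after sorting. *Rag1*-/- mice carry no functional RAG1 recombinase in any cell and lack mature T and B cells. By the labels, cells of 30 WT and 16 *Rag1*-/- mice were used in all, so that each library averages many animals. The methods of the study give a larger number of *Rag1*-/- mice, and the labels and the methods cannot be reconciled from the sources used here. The labels name the *Rag1*-/- cells type 3 innate lymphoid cells and the WT cells type 2, whereas the design text calls both dILC2s, and genotype and this label cannot be told apart. The study describes dILC2s by a gate on CD45+ CD90hi cells without CD2/CD3 signal, and whether the sort for RNA used the same gate is not given in the sources used here.

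*Klr* proteins are C-type lectin-like receptors of natural killer (NK) cells and other lymphocytes, and most of their genes stand side by side in the NK gene complex. The *Klra* (Ly49) receptors bind classical MHC class I molecules. The *Klrb1* (NKR-P1) receptors bind the related *Clec2* proteins, CD94 (*Klrd1*) pairs with NKG2 chains (*Klrc1*, *Klrc2*, *Klrc3*) to read the non-classical MHC class I product of *H2-T23*, NKG2D (*Klrk1*) binds stress ligands of the *Raet1*, *H60* and *Ulbp1* kind, and KLRG1 binds cadherins. Inhibitory members recruit phosphatases through motifs in their tails, while activating members signal through adaptors such as DAP12 (*Tyrobp*) and DAP10 (*Hcst*). KLRG1 is also widely used as a surface marker of mature ILC2s.

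The libraries held 32939428 to 39477243 counts on genes in WT, and 8050562 (pool 2) and 38922750 (pool 7) in *Rag1*-/-. Levels are given as counts or as CPM (counts per 1000000 of the TMM-scaled library size), and the smallest level the depth can show, set at 3 counts in a library, was 0.37 CPM in *Rag1*-/- pool 2 and 0.0763 to 0.0895 CPM in the others. Transcripts of *Rag1* itself numbered 4, 0 and 5 (WT) against 5 and 48 where the label is *Rag1*-/-, which is not lower (log2 fold change 3.53, adjusted p = 0.0866, edgeR), and counts per gene cannot show whether these reads lie in the deleted part. The direction of every comparison therefore rests on the labels. The 24 measured members of a pan-leukocyte list held 0.0995%, 0.249% and 0.246% of the counts in WT pools 5, 6 and 13 and 0.825% and 0.703% in *Rag1*-/- pools 2 and 7. *Krt14*, a keratin of basal keratinocytes, ran the other way with 5018 to 6038 CPM in WT and 1778 and 3161 CPM in *Rag1*-/-. In bulk RNA, fewer cells of a type and less RNA per cell cannot be told apart. *Gata3* and *Il1rl1*, used here as ILC2 markers, were present in all 5 libraries (7530 or more and 317 or more counts). Counts in bulk RNA cannot show which cells these transcripts came from.

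A count was found for 26 of the 30 members, and 21 reached 10 counts in at least 1 library. *Klra6*, *Klra10*, *Klra11-ps* and *Klrb1-ps1* had no count in any library. The filter on low counts passed 15 members, and 3 of these, *Klra7*, *Klrb1b* and *Klrb1f*, were called higher in *Rag1*-/- at an adjusted p under 0.05 and a log2 fold change beyond 1 in either direction, while none was called lower. Over all 19011 genes tested, 3.57% were called higher and 2.16% lower (edgeR, quasi-likelihood F-test with p-values adjusted by Benjamini and Hochberg). At an unadjusted p under 0.05, 9 of the 15 passed, as did 26.4% of all genes tested. DESeq2 called 6 members higher and 1 lower, where 7.29% and 7.65% of the 16428 genes it gave an adjusted p were called. Without the filter edgeR called 10 higher and 1 lower, against 3.87% and 4.98% of all genes, and the gene called lower was *Klrg2* in both. The median log2 fold change of the 15 was 1.82, with 13 positive and 2 negative, against 0.02 for all genes tested. In 12 of the 15 both *Rag1*-/- pools were above every WT pool, a pattern that 23.1% of all genes tested had, and in 1 they were below, as in 22.4% of all genes. The filter favours members that are high in either genotype, so these counts describe the 15 and not the family.

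**Figure D1:**
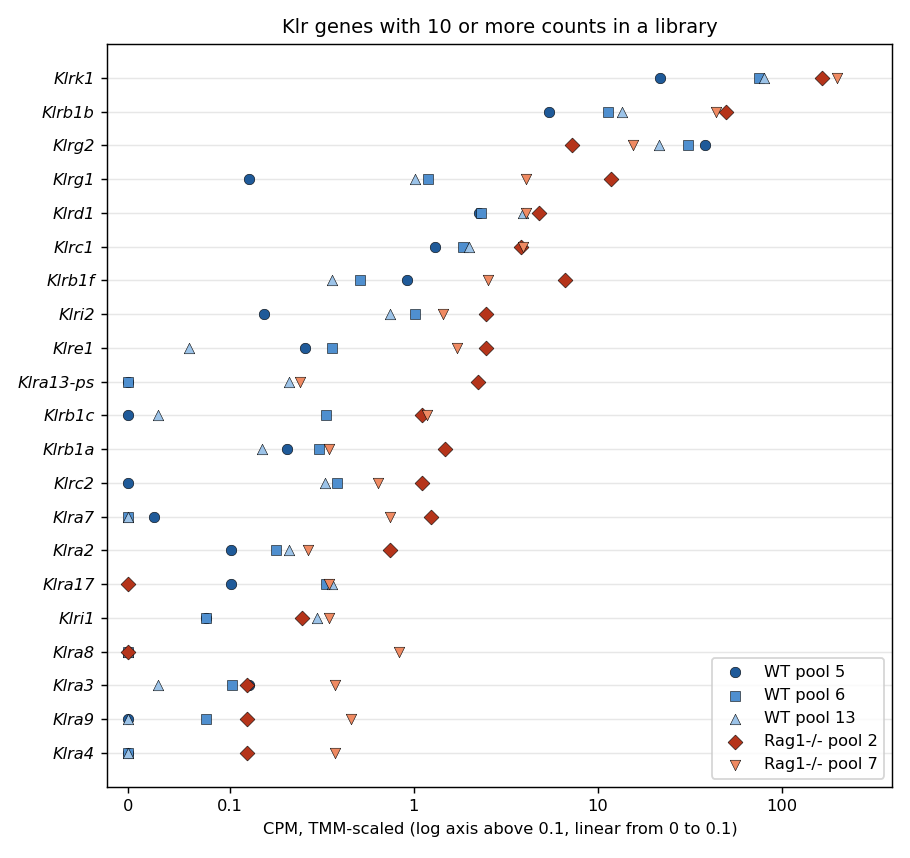
CPM of the 21 *Klr* genes with 10 or more counts in at least 1 library (horizontal axis, logarithmic above 0.1 CPM and linear below it), 1 symbol for each of the 3 WT pools (blue) and 2 *Rag1*-/- pools (red). *Klrk1* lies at 21.9 to 80.1 CPM in WT and at 165 and 200.3 CPM in *Rag1*-/-, and *Klrg2* is the member whose red symbols lie left of all blue ones.

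The 3 called genes are shown with the 150 bases before their RefSeq transcription start (GRCm38.p6), since they were the members called. The windows are chr6:128826316-128826465 on the minus strand for *Klrb1b*, chr6:129045751-129045900 on the plus strand for *Klrb1f* and chr6:130233323-130233472 on the minus strand for *Klra7*. Capitals mark matches, on either strand, to the T-box letters GGTGTG, the ETS letters GGAAGT, the GATA letters AGATAA or the RUNX letters TGTGGT.
Klrb1b: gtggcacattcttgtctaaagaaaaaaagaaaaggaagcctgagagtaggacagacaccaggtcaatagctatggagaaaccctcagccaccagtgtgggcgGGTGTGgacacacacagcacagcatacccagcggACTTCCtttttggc
Klrb1f: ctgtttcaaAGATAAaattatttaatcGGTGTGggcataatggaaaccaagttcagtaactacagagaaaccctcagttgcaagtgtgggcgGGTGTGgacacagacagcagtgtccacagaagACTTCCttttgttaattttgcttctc
Klra7: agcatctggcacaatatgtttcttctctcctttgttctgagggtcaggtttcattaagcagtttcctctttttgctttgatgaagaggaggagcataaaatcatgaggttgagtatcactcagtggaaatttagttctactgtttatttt

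*Klrb1b* and *Klrb1f* shared a run of 22 identical bases, agtgtgggcgggtgtggacaca, beginning 58 bases before the start of *Klrb1b* and 68 bases before that of *Klrb1f*, and both held an ETS match closer to the start, 14 and 26 bases before it. The *Klra7* window held none of the 4 motifs, and its longest run shared with either of the others was 8 bases. Of 32851 promoter windows of this length, 10.3% held the T-box letters, 13.6% the ETS letters, 5.65% the GATA letters and 8.40% the RUNX letters. Of the 29 windows with a *Klr* symbol, which cover 23 of the 30 members and some of them with more than 1 start, 5, 4, 3 and 7 did. These matches describe letters only.

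*Klrk1*, which encodes NKG2D, had the highest CPM of the family in every library except WT pool 5. It had 21.9, 75.3 and 80.1 CPM in WT pools 5, 6 and 13 and 165 and 200.3 CPM in *Rag1*-/- pools 2 and 7. The groups did not overlap, and WT pool 5, the library with the smallest share of leukocyte genes, was the lowest. With edgeR the log2 fold change of 1.63 (standard error 0.49) missed the threshold (adjusted p = 0.0942), which it met with DESeq2 (adjusted p = 0.0117). Per kilobase of exon, *Klrk1* stood at 3.05 to 11.2 CPM in WT and 23.01 and 27.9 CPM in *Rag1*-/-, next to *Klrb1b* at 2.43 to 6.05 CPM and 22.3 and 19.8 CPM.

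The CD94 and NKG2 chains had smaller fitted differences than *Klrk1* in the chains with most counts, *Klrd1* and *Klrc1*. *Klrd1* (CD94) had 89, 91 and 131 counts (WT) against 39 and 152 (*Rag1*-/-), or 2.26, 2.32 and 3.91 CPM against 4.81 and 4.05 CPM. Both *Rag1*-/- pools were above WT by a narrow margin, and edgeR gave a log2 fold change of 0.64 ± 0.39 (SE; adjusted p = 0.356). *Klrc1*, the inhibitory NKG2A chain, had 1.30, 1.86 and 2.00 CPM in WT and 3.82 and 3.94 CPM in *Rag1*-/-. Its groups were separate by a log2 fold change of 1.18 ± 0.39 (SE), which edgeR did not call (adjusted p = 0.113) and DESeq2 did (adjusted p = 0.048). *Klrc2*, the NKG2C chain, had 0, 15 and 11 counts against 9 and 24, and *Klrc3* had at most 5 counts in a library. *Klrc1* and *Klrc2* share stretches of sequence, so that only 61.4% of the 50-base windows of *Klrc1* and 83.7% of those of *Klrc2* are found in no other annotated gene, and their split is uncertain.

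Among the NKR-P1 receptors, 2 genes were called. *Klrb1b*, an inhibitory receptor for CLEC2D, had 5.42, 11.3 and 13.5 CPM in WT pools 5, 6 and 13 and 49.8 and 44.1 CPM in *Rag1*-/- pools 2 and 7. The lowest *Rag1*-/- pool was well above the highest WT pool, a log2 fold change of 2.22 ± 0.37 (SE; edgeR, adjusted p = 0.0306), rank 293 of all genes by p. *Klrb1f*, a receptor for CLEC2I, had 36, 20 and 12 counts (WT) against 54 and 95 (*Rag1*-/-), or 0.916, 0.51 and 0.358 CPM against 6.66 and 2.53 CPM. *Rag1*-/- pool 2 was the highest library, and edgeR gave a log2 fold change of 2.91 ± 0.61 (SE; adjusted p = 0.0412). Leaving out any WT pool or *Rag1*-/- pool 2 ended both calls, with adjusted p between 0.0543 and 0.109 for *Klrb1b* and between 0.0739 and 0.131 for *Klrb1f*, and no gene of the whole table was called in these 4 fits.

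*Klrb1c*, which encodes the activating NK1.1 antigen, had 0, 13 and 1 counts (WT) against 9 and 44 (*Rag1*-/-). Its WT pools were scattered, and the log2 fold change of 3.19 had a standard error of 1.20 (adjusted p = 0.151, edgeR). *Klrb1a* had 8, 12 and 5 counts (WT) against 12 and 13 (*Rag1*-/-), which the depth of pool 2 turns into 1.48 CPM against 0.346 CPM in pool 7 (log2 fold change 1.90, adjusted p = 0.208, edgeR). *Klrb1* had no count in WT and 4 and 8 counts in *Rag1*-/-, and it did not pass the filter. This is 9.82-fold higher when the WT pools together are set to 3 counts, with no allowance for counting error. *Klrb1b* and *Klrb1c* both overlap the annotated gene *Gm44511* on the same strand, which was not analysed here, and 72.8% and 83.0% of their windows are found in no other gene.

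*Klre1*, *Klri1* and *Klri2* encode partners, with KLRE1 pairing with KLRI1 in an inhibitory and with KLRI2 in an activating receptor. *Klre1* had 10, 14 and 2 counts (WT) against 20 and 64 (*Rag1*-/-), or 0.254, 0.357 and 0.0596 CPM against 2.46 and 1.70 CPM. Every *Rag1*-/- pool was above WT, and the log2 fold change was 3.16 ± 0.73 (SE), just short of the threshold in edgeR (adjusted p = 0.0509) and past it in DESeq2 (adjusted p = 0.00143). *Klri2* had 6, 40 and 25 counts against 20 and 54 (log2 fold change 1.57, adjusted p = 0.251, edgeR). *Klri1* had 3, 3 and 10 counts against 2 and 13, with groups that overlapped (log2 fold change 1.05, adjusted p = 0.536, edgeR).

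*Klrg1* was read at low levels in WT. It had 5, 47 and 34 counts (WT pools 5, 6 and 13) against 96 and 153 (*Rag1*-/- pools 2 and 7), or 0.127, 1.20 and 1.014 CPM against 11.8 and 4.08 CPM. Both *Rag1*-/- pools were above WT and pool 2 was well above pool 7. The log2 fold change of 3.32 ± 0.85 (SE) was not called by edgeR (adjusted p = 0.0641). It passed with DESeq2 (adjusted p = 0.000593) and without *Rag1*-/- pool 7 (log2 fold change 3.86, adjusted p = 0.0482, edgeR), and without *Rag1*-/- pool 2 it stood at 2.39 (adjusted p = 0.187).

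*Klrg2* differed from the rest in place and in direction. It lies at 38625693 to 38637242 of chromosome 6, far from the other 29 members, which stand between 122270596 and 131247362. It had 1500, 1211 and 717 counts (WT) against 59 and 585 (*Rag1*-/-), or 38.2, 30.9 and 21.4 CPM against 7.27 and 15.6 CPM, the one tested member with every *Rag1*-/- pool below WT. By edgeR the log2 fold change was -1.37 ± 0.39 (SE; adjusted p = 0.0824), and it was called lower with DESeq2 (-1.41, adjusted p = 0.00764) and without *Rag1*-/- pool 7 (-2.11, adjusted p = 0.0313, edgeR). Its order over the 5 libraries was that of *Krt14*, with WT pool 5 highest and *Rag1*-/- pool 2 lowest. Not all keratinocyte markers had this order. WT pool 6 was highest for *Dsg3* and *Itga6* and WT pool 13 for *Krt15*, and *Rag1*-/- pool 7 was above WT pool 13 for *Krtdap* and *Lgals7*. The 20 keratinocyte markers together held 3.41% to 4.86% of the counts in WT and 0.853% and 1.99% in *Rag1*-/-. Of these markers, 18 were below every WT pool in both *Rag1*-/- pools, as were 22.4% of all genes tested. The part of the markers in the difference of *Klrg2* was not tested.

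The 14 *Klra* genes were near the limit of detection, summing to 15, 29 and 31 counts (WT pools 5, 6 and 13) against 39 and 141 (*Rag1*-/- pools 2 and 7). *Klra7*, the inhibitory receptor Ly49G, had 1, 0 and 0 counts (WT) against 10 and 28 (*Rag1*-/-). It passed the filter on low counts only through the *Rag1*-/- pools, where it was high, so its call is not independent of that filter. It was the clearest contrast among them, called higher by edgeR (adjusted p = 0.0309), and the ratio of the summed counts per library size was 93.3 with a 95% counting interval of 15.8 to 3780, which covers counting error only. Leaving out any WT pool or *Rag1*-/- pool 2 ended the call (adjusted p 0.0738 to 0.112). Without *Rag1*-/- pool 7, *Klra7* did not pass the filter, and DESeq2 gave it no adjusted p. Its fitted log2 fold change of 6.23 depends on the prior count and is no bound.

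Some other *Klra* genes had most or all of their counts in *Rag1*-/- pool 7. *Klra8*, the activating receptor Ly49H, had 31 counts in *Rag1*-/- pool 7 and none elsewhere, and pool 2, with a floor of 0.37 CPM, could have shown the 0.826 CPM of pool 7. *Klra4*, the activating receptor Ly49D, had no count in WT and 1 and 14 counts in *Rag1*-/-. This is 12.3-fold higher when the WT pools together are set to 3 counts, with no allowance for counting error. Its 0.373 CPM in pool 7 was about the floor of pool 2, so a lower level in pool 2 is not shown. *Klra9* (Ly49I) had 0, 3 and 0 counts against 1 and 17, a ratio of 14.7 with a counting interval of 4.30 to 78.1. In each of these genes most or all counts came from *Rag1*-/- pool 7, the deeper library of its genotype. *Klra13-ps*, a pseudogene, had instead 18 counts in pool 2 and 9 in pool 7, against 0, 0 and 7 in WT. *Klra17* (Ly49Q) was the only tested *Klra* gene besides *Klra7*, and its groups overlapped (4, 13 and 12 counts in WT, 0 and 13 in *Rag1*-/-; log2 fold change -0.21, adjusted p = 0.933, edgeR). *Klra2* had 4 to 10 counts and *Klra3* 1 to 14 counts over the 5 libraries, while *Klra1*, *Klra5* and *Klra14-ps* had at most 4.

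These low *Klra* counts also depend on how reads were shared among near-identical genes. Of the 50-base windows, the length of the reads, 66.9% were found in no other annotated gene for *Klra8*, 68.5% for *Klra9*, 87.7% for *Klra7* and 95.3% for *Klra4*, and 9 of the 30 members were below 80%. *Klra8* and *Klra9* have in common a run of 106 coding bases (bases 481 to 586 of the coding sequence of *Klra8*), shown to make plain that a read within it cannot be given to either gene.
Klra8 and Klra9: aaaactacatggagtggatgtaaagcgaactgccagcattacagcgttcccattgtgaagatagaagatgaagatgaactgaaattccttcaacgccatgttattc

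**Figure D2:**
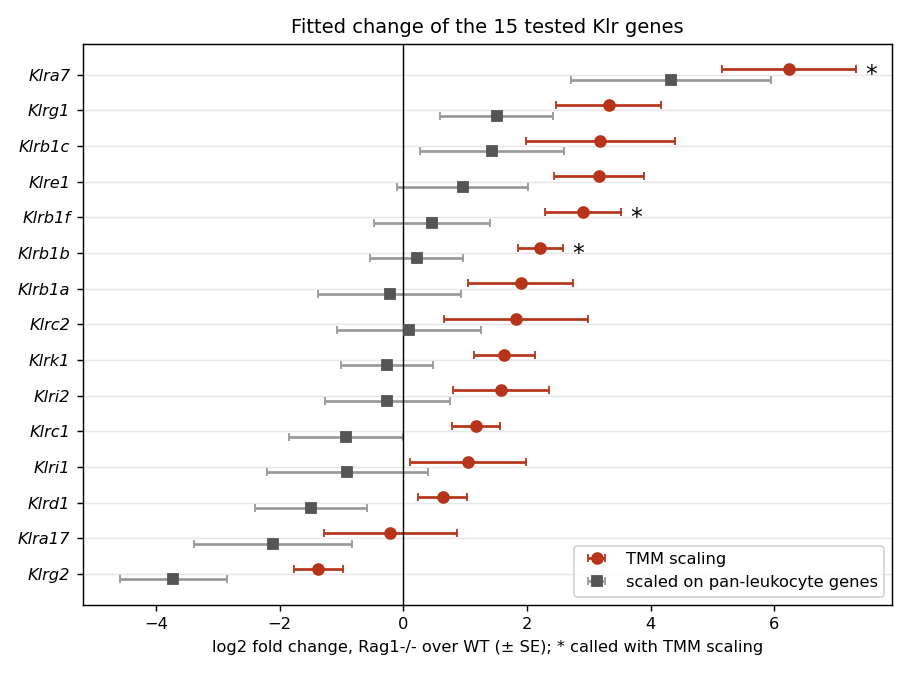
Log2 fold change of *Rag1*-/- over WT for the 15 tested *Klr* genes (horizontal axis, bars are standard errors), with TMM scaling (red circles) and with libraries scaled on the pan-leukocyte genes (grey squares); stars mark the 3 genes called with TMM scaling. The grey squares lie left of the red circles for all 15 genes, and *Klra7* is called with both scalings (log2 fold changes of 6.23 and 4.33).

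Since the leukocyte genes were higher in both *Rag1*-/- pools, the family was set against them. Summed over the members other than *Klrg2*, which was left out after its values were seen, the level was 33.0, 95.7 and 103.5 CPM in WT pools 5, 6 and 13 and 256 and 269 CPM in *Rag1*-/- pools 2 and 7. Per 10000 counts of the leukocyte genes, the same sum was 336, 383 and 429 in WT and 313 and 369 in *Rag1*-/-. Without *Klrg2*, the first measure separated the genotypes and the second did not, and on the second *Rag1*-/- pool 2 was the lowest of the 5 libraries. Per 10000 leukocyte counts, *Klrg2* alone had 389, 123 and 88.5 in WT pools 5, 6 and 13 and 8.88 and 21.4 in *Rag1*-/- pools 2 and 7. With it in the sum, both *Rag1*-/- pools were below every WT pool on the second measure. On the first they stayed above WT, at 264 and 284 CPM against 71.2, 127 and 125 CPM.

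**Figure D3:**
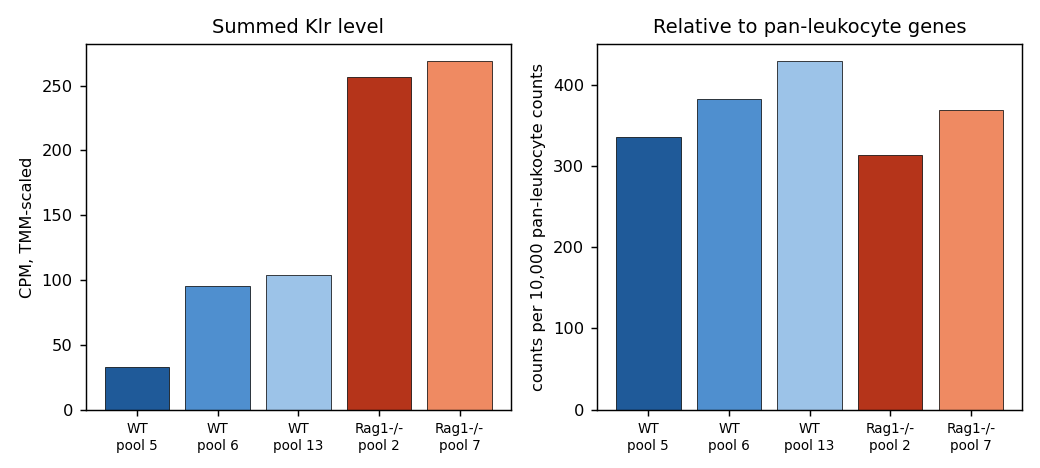
Summed level of the 29 *Klr* genes other than *Klrg2* in each library, as TMM-scaled CPM (left) and as counts per 10000 counts of the pan-leukocyte genes (right), 1 bar per pool. On the left both *Rag1*-/- pools (256 and 269 CPM) stand above WT, and on the right they lie at 313 and 369 against 336 to 429 in WT.

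Scaling on the leukocyte genes shifted all log2 fold changes, with a median shift of -2.22. With it, 7 of the 15 tested *Klr* genes were positive and 8 negative, with a median of -0.22 against -2.20 for all genes. *Klra7* was still called higher (4.33, adjusted p = 0.0179, edgeR), where 0.0842% of all genes were, and *Klrg2* was called lower (-3.71, adjusted p = 0.000493), where 67.3% of all genes were. Since *Klra7* passed the filter only through its high group, its call here adds no separate support. *Klrb1b* (0.22, adjusted p = 0.79) and *Klrb1f* (0.46, adjusted p = 0.648) were no longer called, and *Klrk1* (-0.26), *Klrc1* (-0.93) and *Klrd1* (-1.49) turned negative. Per leukocyte count, both *Rag1*-/- pools were above every WT pool for *Klra7*, *Klrg1*, *Klrb1b* and *Klrb1c*, 4 of the 15, a pattern that 0.652% of all genes tested had. For *Klrg1* the values were 1.30, 4.79 and 4.197 per 10000 leukocyte counts in WT and 14.4 and 5.59 in *Rag1*-/-, so that pool 7 was close to WT. For *Klrb1c* the margin was 1.354 in the lower *Rag1*-/- pool over 1.325 in WT pool 6, which rests on 9 and 13 counts. *Klrb1b* differed little, with 55.2, 45.4 and 55.8 in WT and 60.8 and 60.5 in *Rag1*-/-. In *Klrd1*, *Klrc1*, *Klra17* and *Klrg2* both *Rag1*-/- pools were below WT on this measure, as in 86.6% of all genes.

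The make-up of the family does not depend on how libraries are scaled. Of the *Klr* counts apart from *Klrg2*, *Klrk1* took 66.4%, 78.6% and 77.4% in WT pools 5, 6 and 13 and 64.5% and 74.5% in *Rag1*-/- pools 2 and 7, so that the genotypes overlapped. *Klrb1b* took 16.4%, 11.8% and 13.02% in WT and 19.4% and 16.4% in *Rag1*-/-, with overlap between *Rag1*-/- pool 7 (95% Wilson interval 15.7% to 17.1%) and WT pool 5 (14.5% to 18.5%). These intervals cover counting error only, not the spread between pools. *Klrd1* took 6.86%, 2.42% and 3.77% in WT and 1.88% and 1.51% in *Rag1*-/-, the pools of each genotype standing apart, though the intervals of WT pool 6 (1.98% to 2.97%) and *Rag1*-/- pool 2 (1.37% to 2.55%) overlapped. *Klrg1* took 0.386%, 1.25% and 0.979% in WT and 4.62% and 1.52% in *Rag1*-/-, and here too the intervals of WT pool 6 (0.942% to 1.66%) and *Rag1*-/- pool 7 (1.30% to 1.77%) overlapped. The *Klra* genes together took 0.772% to 1.16% in WT and 1.88% and 1.40% in *Rag1*-/-. A share compared over 3 and 2 pools cannot reach the 0.05 level in an exact permutation test, and none was run.

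**Figure D4:**
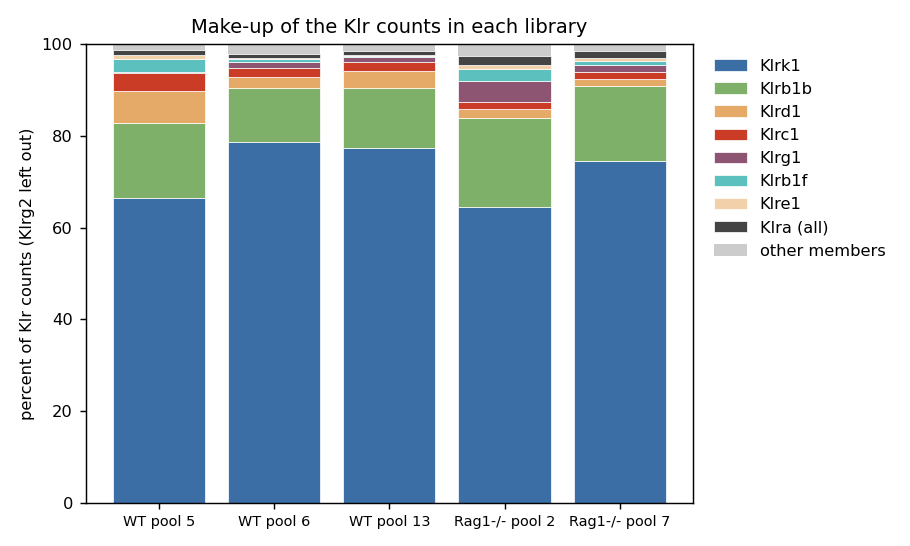
Percent of the *Klr* counts (*Klrg2* left out) taken by each member or group in the 5 libraries, stacked to 100%. *Klrk1* takes 64.5% to 78.6% and *Klrb1b* 11.8% to 19.4% in every library, while the *Klrd1* band is 2.42% to 6.86% in WT and 1.51% and 1.88% in *Rag1*-/-.

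Of 21 genes listed as ligands of *Klr* receptors, 17 were matched in the table and 14 tested, and 4 were called higher and none lower, with 8 positive and 6 negative (median log2 fold change 0.68), where 3.57% of all genes were called higher and 2.16% lower. DESeq2 called 6 higher and 6 lower (7.29% and 7.65% of the genes it gave an adjusted p). Scaling on the leukocyte genes gave 0 higher and 7 lower, where 0.0842% and 67.3% of all genes were called. The called genes were MHC class I genes and 1 NKG2D ligand. *H2-K1* and *H2-D1*, classical MHC class I genes read by Ly49 receptors, had log2 fold changes of 1.31 and 1.28 (adjusted p = 0.0307 and 0.0309, edgeR), and *H2-T23*, read by CD94 and NKG2A, had 70.8, 76.2 and 68.2 CPM in WT and 141 and 181 CPM in *Rag1*-/- (log2 fold change 1.17, adjusted p = 0.0306, edgeR). *Ulbp1* had 1.40, 3.29 and 2.27 CPM in WT and 10.7 and 7.91 CPM in *Rag1*-/- (log2 fold change 2.00, adjusted p = 0.0411, edgeR).

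The ligands of a single receptor did not all have the same sign. Among those of NKG2D, *H60b* had 12, 42 and 29 counts (WT) against 23 and 98 (*Rag1*-/-) (log2 fold change 1.86, adjusted p = 0.106), whereas *H60c* had 36.1, 31.1 and 23.5 CPM in WT and 3.70 and 11.6 CPM in *Rag1*-/- (log2 fold change -1.93, adjusted p = 0.057, edgeR for both). The groups did not overlap in either gene, and the signs were opposite. *Clec2i*, a ligand of KLRB1F though not shown to be its only one, had a log2 fold change of 2.20 (adjusted p = 0.0693), *Clec2d*, a ligand of KLRB1B, overlapped between the genotypes (0.36, adjusted p = 0.491), and *Clec2e*, *Clec2f* and *Clec2g* were negative (-2.15, -1.26 and -2.14, adjusted p 0.0763 to 0.104, edgeR for each). Of the cadherins that bind KLRG1, *Cdh1* (E-cadherin) had 901 to 1382 CPM in WT and 455 and 583 CPM in *Rag1*-/- (log2 fold change -1.21, adjusted p = 0.053, edgeR), *Cdh4* was negative too (-1.23, adjusted p = 0.0839) and *Cdh2* positive (0.99, adjusted p = 0.119). *Cdh1*, *Cdh4*, *H60c* and the 3 negative *Clec2* genes were in every case below WT in both *Rag1*-/- pools. So were 18 of 20 keratinocyte markers and 22.4% of all genes tested, and a link between these ligands and the markers was not tested.

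Of 16 adaptors, kinases and phosphatases that act below these receptors, all were tested, 7 were called higher and none lower (median log2 fold change 1.32; 3.57% and 2.16% of all genes). With scaling on the leukocyte genes 0 were called higher and 4 lower, where 0.0842% and 67.3% of all genes were called. Without any 1 of the WT pools none was called in this list or among the ligands, as none was in the whole table. The called genes were *Lck*, *Fyn*, *Zap70*, *Lat*, *Vav1*, *Grb2* and *Inpp5d*, of which the kinases and *Lat* also serve the T cell receptor. *Lck* had 8.88, 18.0 and 13.1 CPM in WT and 90.2 and 57.7 CPM in *Rag1*-/- (log2 fold change 2.47, adjusted p = 0.0306, edgeR). *Inpp5d*, the inositol phosphatase SHIP1 that inhibitory receptors recruit, had a log2 fold change of 1.74 (adjusted p = 0.0329, edgeR). The adaptors themselves were not called. *Hcst* (DAP10), the partner of NKG2D, had 4.73, 18.6 and 15.8 CPM in WT and 39.3 and 77.1 CPM in *Rag1*-/- with separate groups (log2 fold change 2.16, adjusted p = 0.0641), while *Tyrobp* (DAP12, 0.81, adjusted p = 0.35) and *Fcer1g* (0.71, adjusted p = 0.212, edgeR for each) overlapped.

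**Figure D5:**
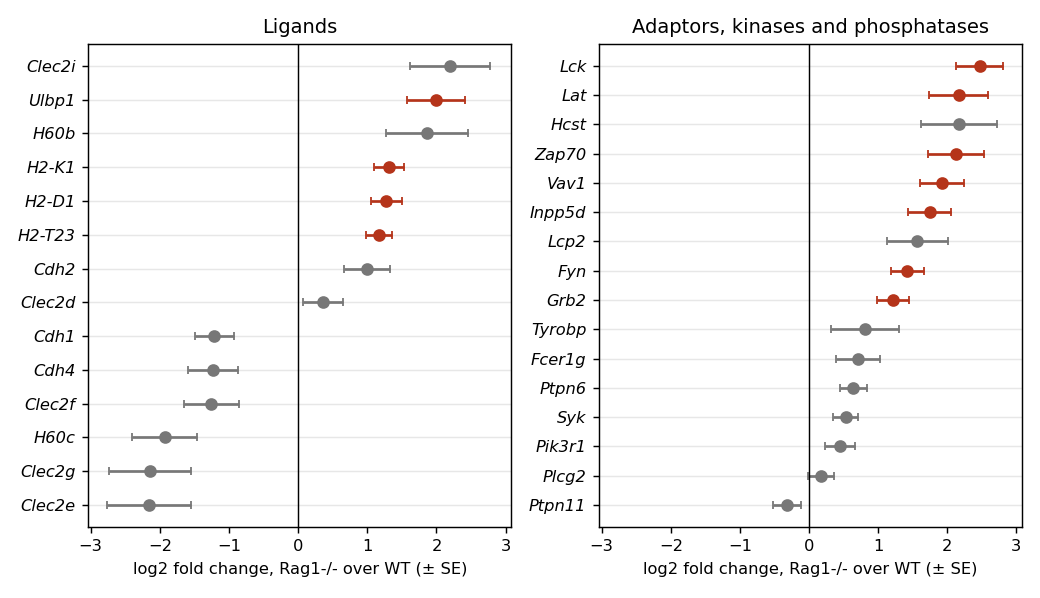
Log2 fold change of *Rag1*-/- over WT (horizontal axis, bars are standard errors) for the 14 tested ligand genes (left) and the 16 adaptor, kinase and phosphatase genes (right), with called genes in red. On the left 8 genes are positive and 6 negative, from 2.20 (*Clec2i*) to -2.15 (*Clec2e*), and on the right 15 are positive.

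*Klr* genes are also expressed by NK cells, ILC1s and T cells, whose markers were read in the same libraries. The counts of called markers stand beside 3.57% of all genes called higher and 2.16% lower, and without any 1 of the WT pools or *Rag1*-/- pool 2 no marker of any list was called. Of 18 NK and ILC1 markers, 16 were tested, 7 were called higher and 1 lower (*Itga2*, which encodes the integrin CD49b, -1.33). With scaling on the leukocyte genes 2 were called higher and 1 lower, where 0.0842% and 67.3% of all genes were called. The summed level of the list was 88.9 to 120 CPM in WT and 202 and 209 CPM in *Rag1*-/-. *Ncr1*, which encodes the NK receptor NKp46, had 6, 17 and 3 counts (WT) against 8 and 35 (*Rag1*-/-) (log2 fold change 2.05, adjusted p = 0.155), and *Eomes*, a transcription factor of NK cells, had 4, 14 and 15 counts against 17 and 76 (2.76, adjusted p = 0.0576, edgeR for both). *Tbx21*, which encodes T-bet, had 35, 24 and 9 counts against 21 and 75 (1.93, adjusted p = 0.0999, edgeR). *Gzma*, a granule protease of NK cells, had 6, 15 and 0 counts against 51 and 328 and was called higher (5.34, adjusted p = 0.0309, edgeR). No NK and ILC1 marker that was measured was at 0 in all libraries, and 13 of the 16 stood above WT in both *Rag1*-/- pools (23.1% of all genes). So did 12 of the 15 tested *Klr* genes, and the pattern was not particular to NK and ILC1 markers. It was seen in 15 of 16 ILC2, 9 of 10 ILC3, 8 of 15 T cell and 24 of 24 pan-leukocyte genes, in 1 of 5 B cell markers, and in 0 myeloid, mast cell or keratinocyte markers. The part of any of these lists in the *Klr* differences was not tested.

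Of 17 T cell markers, 15 were tested, 4 were called higher (*Cd3g*, *Cd247*, *Trac* and *Trbc2*) and 1 lower. With scaling on the leukocyte genes 0 were called higher and 5 lower, where 0.0842% and 67.3% of all genes were called. The summed level of the list was 84.3 to 168 CPM in WT and 437 and 377 CPM in *Rag1*-/-. *Cd3e*, a chain of the T cell receptor complex, had 5.39 to 8.03 CPM in WT, and of the *Rag1*-/- pools 2 and 7, at 9.37 and 7.70 CPM, only the latter overlapped with WT (log2 fold change 0.32, adjusted p = 0.553, edgeR). *Tcrg-V5*, the gamma chain segment of epidermal T cells, which express NKG2D, was called lower (124, 125 and 85 counts in WT, 6 and 19 in *Rag1*-/-, log2 fold change -2.31, adjusted p = 0.0383, edgeR). The delta chain segment *Trdv4* went the other way, with 11.0, 26.4 and 19.5 CPM in WT and 43.6 and 30.2 CPM in *Rag1*-/- (0.96, adjusted p = 0.157, edgeR). *Trdc* and *Tcrg-C1* overlapped between the genotypes. ILC2 markers (16 tested, 7 called higher, none lower, median 1.88) and ILC3 markers (10 tested, 6 called higher, none lower, median 2.57) stood beside 16 of 24 pan-leukocyte genes called higher (median 1.99). With scaling on those leukocyte genes, 0 ILC2 markers were called higher and 0 lower, and 3 ILC3 markers higher and 1 lower. *Gata3*, a factor of ILC2s, had 196, 321 and 225 CPM in WT and 554 and 383 CPM in *Rag1*-/- (log2 fold change 0.92, adjusted p = 0.0998, edgeR), above WT in both *Rag1*-/- pools and not called. Of 20 keratinocyte markers, all negative, 8 were called lower (median -1.51), and 20 with scaling on the leukocyte genes, where 67.3% of all genes were. None of the 5 tested B cell, 9 myeloid and 7 mast cell markers was called in either direction by edgeR with TMM scaling of all 5 libraries, with log2 medians of -1.53, 0.22 and -0.72. With scaling on the leukocyte genes 4, 5 and 6 of them were called lower, where 67.3% of all genes were.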

How the data were processed

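RNA of sorted dILC2s was sequenced by the authors with single reads of 50 bases after poly(A) selection. Per the labels and the methods, reads were aligned to GRCm38 with STAR 2.5 and counted per gene with featureCounts 1.5.0-p1. The authors deposited the counts without normalization, and a normalized signal per gene symbol. The study and the labels name different annotation releases, and the strand and multi-read settings of the counting are not given in the sources used here.

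Genotypes were taken from the labels. Counts were filtered with filterByExpr, scaled with TMM and compared with the quasi-likelihood test of edgeR 4.0.16 (R 4.3.3) on all 5 libraries, with p-values adjusted over all 19011 genes tested. P-values measure the spread between pools. Calls needed an adjusted p under 0.05 together with a log2 fold change beyond 1 in either direction. Standard errors were obtained from the fold change and the F statistic. The fit was tested on simulated data.

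The members and all gene lists were chosen with earlier results of these data known. Members with 10 or more counts in a library were named, and of the lists the called genes (at most 6 for long lists), ligands, adaptors and defining markers, of which 1 is not reported here. *Klrb1*, *Lat*, *Trdv4*, *Trdc* and *Tcrg-C1* were named after their values were seen. Windows of 50 bases were compared with all GENCODE M21 transcripts on both strands, and exon lengths were taken from the same annotation. Promoter windows came from RefSeq (23 of 30 members matched by symbol). Alternatives were DESeq2 1.42.0, limma 3.58.1 on log2 of the signal the authors deposited (pseudocount 1), scaling by RLE, by library size or by leukocyte genes, a filter of 10 counts in every library or none, and leaving out each library. Flow cytometry data were not analysed here.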

Additional observations from a re-analysis of the deposited data

How the results depend on the processing

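Depth limits the *Klra* genes most, since *Rag1*-/- pool 2 can show no less than 0.37 CPM. No paired analysis was possible because the groups share no replicate numbers. With TMM, RLE and unscaled libraries, DESeq2, limma, no filter and the stricter filter, every tested *Klr* gene that could be fitted kept its direction. *Klra17*, which was never called by edgeR, stood at 0.40 without *Rag1*-/- pool 2 and 0.08 without WT pool 13.

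The number of *Klr* genes called higher was 3, and it became 6 with DESeq2, 10 without the filter and 1 with scaling on the leukocyte genes. The number called lower was 0 and became 1 with DESeq2, without the filter and with scaling on the leukocyte genes, each time *Klrg2*. Over the fits without 1 library, 0 to 3 were called higher and 0 to 1 lower. No *Klr* gene was called higher without any 1 of the WT pools or without *Rag1*-/- pool 2 (edgeR), where 8 to 9 of 14 to 18 tested had an unadjusted p under 0.05, against 19.2% to 25.8% of all genes. Scaling on the leukocyte genes without *Rag1*-/- pool 2, added after the data were seen, called 0 *Klr* genes, with 2 of 18 at an unadjusted p under 0.05 (21.7% of all genes).

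Over all genes, 679 were called higher and 411 lower. The numbers were 1197 and 1256 with DESeq2, 1157 and 1488 without the filter, and 16 and 12791 with scaling on the leukocyte genes. With at least 10 counts in every library 641 were called lower. Over the fits without 1 library, 0 to 814 were higher and 0 to 1595 lower. With scaling on the leukocyte genes and *Rag1*-/- pool 2 left out, 0 were higher and 0 lower, with 4374 at an unadjusted p under 0.05 (edgeR).

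Of the ligands, 4 were called higher and 0 lower. With scaling on the leukocyte genes these were 0 and 7, where 0.0842% and 67.3% of all genes were called. The number called lower was 6 with DESeq2 and without the filter, 1 with library size alone, 2 with the stricter filter and 2 with limma. Over the fits without 1 library, 0 to 4 were higher and 0 to 5 lower. Of the signalling genes, 7 were called higher and 0 lower, and 0 and 4 with scaling on the leukocyte genes. Over the fits without 1 library, 0 to 6 were called higher. With that scaling and *Rag1*-/- pool 2 left out, 0 ligands and 0 signalling genes were higher.

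The log2 ratio of the summed *Klr* level without *Klrg2* was 1.76, and -0.17 relative to the leukocyte genes, which were themselves higher in both *Rag1*-/- pools. With that scaling the log2 fold changes that changed sign were -0.22 for *Klrb1a*, -1.49 for *Klrd1*, -0.26 for *Klrk1*, -0.93 for *Klrc1*, -0.90 for *Klri1* and -0.26 for *Klri2*. With *Rag1*-/- pool 2 also left out they were -1.40 for *Klrb1a*, -0.27 for *Klrb1f*, -1.53 for *Klrd1*, -0.054 for *Klrk1*, -0.21 for *Klrc2*, -0.83 for *Klrc1*, -0.68 for *Klri1* and -0.57 for *Klri2*. The cause of these changes was not tested beyond the shift of all genes.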
